A study of Mus musculus with 6 samples.

Results

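The genes described here are Nr3c1, which encodes the glucocorticoid receptor, and 6 genes known as its targets or as part of steroid activation in lymphoid cells. These are Tsc22d3, Fkbp5, Per1, Sgk1, Hsd11b1 and Klf9. They were chosen by name, with earlier results of these data known, as were the gene lists below. All 7 were found among the 22322 genes of the deposited table. RNA was sequenced from DP thymocytes (CD4+CD8+ cells sorted from the thymus) of 3 control and 3 Paxbp1 cKO samples, and no treatment was given to either group. The control mice were Paxbp1fl/fl littermates without Cre, and the cKO mice were Paxbp1fl/fl Lckcre. Both groups therefore carried loxP sites around exon 8 of Paxbp1, and both were on the C57BL/6 background, of mixed sexes and 4 to 7 weeks old. The Lck promoter drives Cre in T lineage cells from the CD4-CD8- stage on. No library came from mice with Cre and without the floxed allele, so the loss of Paxbp1 and the presence of Cre cannot be told apart. The labels do not say whether each library came from 1 mouse. If it did not, the p-values measure only the spread between these libraries.

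Glucocorticoids are steroid hormones that cross the cell membrane and bind the glucocorticoid receptor, which Hsp90 and its co-chaperones hold in a form able to bind hormone. The receptor then moves to the nucleus and binds glucocorticoid response elements, short palindromes in DNA, where coactivators and corepressors set the transcription of nearby genes. DP thymocytes are known for their sensitivity to glucocorticoid-induced apoptosis. Among the targets, Tsc22d3 encodes GILZ, a leucine zipper protein that restrains AP-1 and NF-kB, and Fkbp5 encodes a co-chaperone that lowers the affinity of the receptor for hormone. Sgk1 encodes a serum- and glucocorticoid-regulated kinase, Per1 a repressor of the circadian clock, and Klf9 a Krüppel-like zinc finger factor. Hsd11b1 encodes the enzyme that regenerates active glucocorticoid from its inactive keto form inside the cell.

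All 7 genes are protein-coding in GENCODE release M21 on GRCm38, matched by their Ensembl identifiers, and no exon of another annotated gene overlapped theirs. Tsc22d3 occupies 140539528 to 140600659 of chromosome X (minus strand), and Sgk1 occupies 21882184 to 21999903 of chromosome 10 (plus strand). Hsd11b1 occupies 193221634 to 193264075 of chromosome 1 (minus strand). Fkbp5 spans 28399094 to 28517527 of chromosome 17, Per1 69095217 to 69109960 of chromosome 11, and Klf9 23141226 to 23168134 of chromosome 19. For 6 of the genes, RefSeq gave 14 transcript starts (GRCm38.p6). The 250 bases before each start were searched on both strands for the glucocorticoid response element palindrome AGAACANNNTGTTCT, for its hexamer AGAACA, for the E-box CACGTG bound by clock factors, and for the cyclic AMP response element TGACGTCA. The palindrome contains the hexamer on each strand. In the Sgk1 window shown here, an E-box overlapped another copy of the hexamer. The palindrome was found before 1 of the 6 starts of Sgk1, and in 3 of all 32851 RefSeq windows of this length (0.00913%). The hexamer occurred in 4 of the 14 windows and in 16.1% of all windows, and the E-box in 3 of 14 and in 6.02%. The cyclic AMP response element occurred in 0 of 14 and in 1.55%. A match is a description of the sequence and not a binding site. The following windows precede the 2 genes that fell (Sgk1 and Hsd11b1), the most abundant target (Tsc22d3) and the target that also belongs to the clock (Per1). Sgk1, Tsc22d3 and Per1 have further windows, and for each of them a window with a marked motif was chosen. The other windows of Tsc22d3 and Per1 held 0 matches, and those of Sgk1 held the hexamer or no match. Capitals mark the palindrome and the hexamer on either strand in Sgk1 and Tsc22d3, and the E-box in Per1. The window of Hsd11b1 held none of these letters.
Sgk1, chr10:21993640-21993889, plus strand: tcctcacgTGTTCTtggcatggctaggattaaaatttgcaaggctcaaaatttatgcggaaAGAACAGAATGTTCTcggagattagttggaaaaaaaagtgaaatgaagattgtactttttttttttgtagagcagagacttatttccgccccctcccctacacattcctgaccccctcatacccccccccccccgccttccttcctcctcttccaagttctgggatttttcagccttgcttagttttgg
Hsd11b1, chr1:193242361-193242610, minus strand: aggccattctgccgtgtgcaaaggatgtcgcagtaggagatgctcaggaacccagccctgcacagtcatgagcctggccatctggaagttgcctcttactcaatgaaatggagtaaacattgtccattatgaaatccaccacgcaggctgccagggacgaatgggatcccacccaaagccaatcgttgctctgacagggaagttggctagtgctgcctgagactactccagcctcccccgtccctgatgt
Tsc22d3, chrX:140600523-140600772, minus strand: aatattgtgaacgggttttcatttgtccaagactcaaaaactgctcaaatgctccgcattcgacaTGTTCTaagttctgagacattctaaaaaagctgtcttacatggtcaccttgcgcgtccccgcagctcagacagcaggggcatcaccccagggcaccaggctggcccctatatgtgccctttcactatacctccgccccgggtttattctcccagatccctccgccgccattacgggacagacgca
Per1, chr11:69098699-69098948, plus strand: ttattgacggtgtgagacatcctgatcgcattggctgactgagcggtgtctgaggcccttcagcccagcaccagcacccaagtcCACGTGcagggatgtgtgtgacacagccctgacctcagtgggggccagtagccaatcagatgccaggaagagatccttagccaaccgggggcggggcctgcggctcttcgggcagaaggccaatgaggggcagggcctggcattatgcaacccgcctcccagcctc

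The palindrome of Sgk1, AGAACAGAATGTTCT, spans chr10:21993701-21993715. It lies 189 bases before the start at 21993890 and 965 bases before the next RefSeq start at 21994666. Which of these starts DP thymocytes used was not tested, since the counts are per gene.

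The depth was similar across the libraries, 18963775 to 26252248 counts, and a single count corresponded to 0.0388 to 0.0521 CPM (library-size-scaled counts, with TMM factors of 0.981 to 1.01). The targeted gene, Paxbp1, had 40.1, 16.3 and 15.5 CPM in control libraries 1 to 3 and 38.8, 47.1 and 49.6 CPM in the libraries labelled cKO 1 to 3 (log2 fold change 0.92, edgeR adjusted p = 0.0977). For Paxbp1, control 1 lay within the range of the cKO libraries. With single libraries left out, its log2 fold change ran from 0.68 to 1.5. In these fits Paxbp1 had an adjusted p below 0.05 only without control 1 (edgeR adjusted p = 0.0017). It also passed in 2 of 8 other alternatives. The Paxbp1 counts cover the whole gene and not exon 8 alone, so they do not check the labels. Every direction given here rests on the labels. In sorted thymocytes of cKO mice, the paper reported reduced Paxbp1 mRNA by qPCR. It also reported efficient loss of the protein by western blot, in DP cells among others. All 7 genes passed the filter on low counts and were tested among 11488 genes.

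On the scale of FPKM, which the authors scaled to gene length and which allows levels of different genes to be compared, Tsc22d3 was the most abundant of the 7 in every library, with 159.7 to 295 FPKM. Nr3c1 followed with 84.4 to 119 FPKM, and its mean lay above that of 95.3% of all genes in the table. Per1 ranged from 27.9 to 120.4 FPKM, Sgk1 from 29.5 to 60.9, Hsd11b1 from 13.2 to 48.4 and Fkbp5 from 24.3 to 32.1. From Nr3c1 down to Fkbp5, the ranges of neighbours in this order overlapped. Klf9 was lowest in every library, at 0.28 to 1.21 FPKM. The receptor transcript and 5 of its partner genes were thus well measured in these cells, whereas Klf9 rested on 25 to 117 counts per library.

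Among the 7 genes, 2 fell and 0 rose in the libraries labelled cKO, at an adjusted p below 0.05 in edgeR's quasi-likelihood test. Over all tested genes, 10.4% were called in either direction and 5.89% were lower. Sgk1 had 119, 151 and 151 CPM in control libraries 1 to 3 and 69.2, 74.9 and 70.6 CPM in cKO libraries 1 to 3. The groups did not overlap, and the cKO libraries lay within 1.08-fold of each other. The mean went from 140 ± 18.3 to 71.6 ± 2.99 CPM (S.D., n = 3 per group), which is 51% of control. The log2 fold change was -0.97 with a standard error of 0.13 (adjusted p = 0.00408 in edgeR), and by p-value Sgk1 ranked 49 among 11488 genes. The call held in every fit with 1 library left out, where the log2 fold change ran from -1.08 to -0.92 and the edgeR adjusted p from 0.000532 to 0.0406. Sgk1 did not pass the additional size limit in the study's methods, a log2 fold change beyond 1 in either direction.

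Hsd11b1 had 48.9, 65.9 and 52.3 CPM in control libraries 1 to 3 and 28.4, 30.1 and 17.0 CPM in cKO libraries 1 to 3. All cKO libraries lay below all controls, with cKO 3 lowest. The mean went from 55.7 ± 8.98 to 25.2 ± 7.16 CPM (S.D., n = 3 per group), or 45.2% of control. The log2 fold change was -1.14 with a standard error of 0.22 (adjusted p = 0.0133 in edgeR), so Hsd11b1 was the only one of the 7 past both limits. Over all tested genes, 1.23% were lower past both limits and 1.53% higher, and 0 of the 7 genes were higher past both. Without cKO 3 the log2 fold change was -0.93 (adjusted p = 0.0545 in edgeR), and without control 2 it was -1.01 (adjusted p = 0.0541 in edgeR). The unadjusted edgeR p was 0.000861 and 0.00214 in these fits, against 0.000402 with all libraries. Over all tested genes, the same fits gave 78 and 235 lower at an adjusted p below 0.05, against 677. Control and cKO ranges were separate for 2 of the 7 genes, beside 33.0% of all tested genes. For Sgk1 and for Hsd11b1, p was 0.1 in an exact permutation test (two-sided), the smallest p that 3 libraries against 3 allow.

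**Figure D1:**
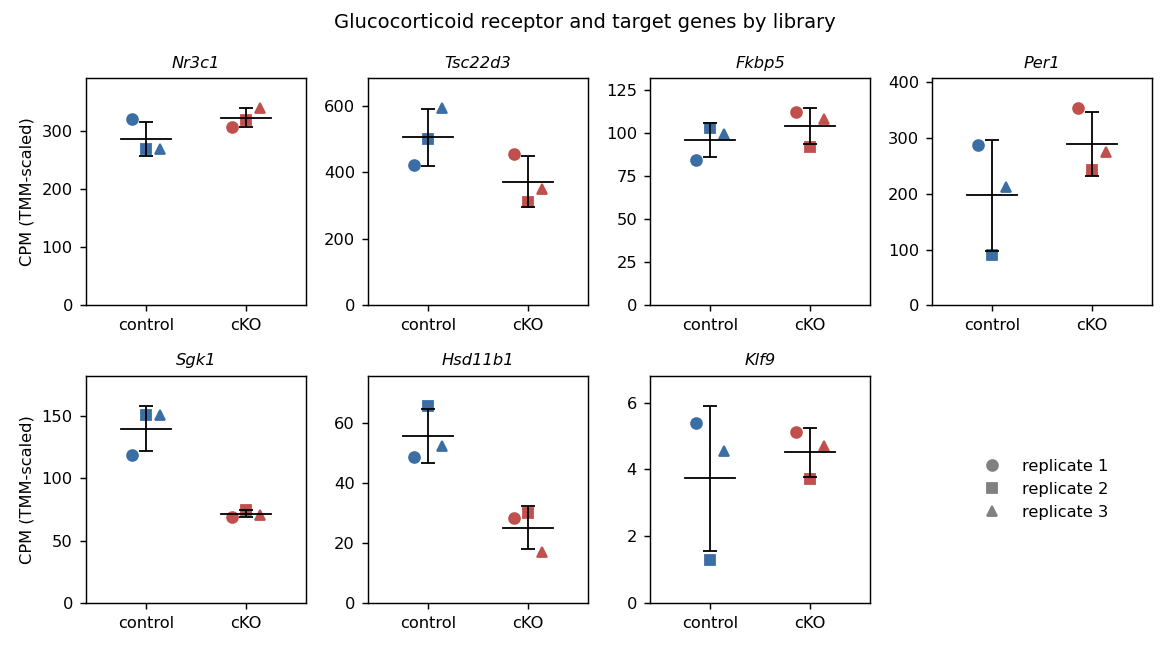
Each panel plots the TMM-scaled CPM of 1 gene (vertical axis, from 0) in the 3 control (blue) and 3 cKO (red) libraries, with the mean and S.D. in black and a marker shape per replicate number. Sgk1 and Hsd11b1 separate by genotype, while control 2 lies far below the other libraries for Per1 (90.6 CPM) and Klf9 (1.29 CPM).

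The receptor itself showed no detectable change. Its gene occupies 39410545 to 39519421 of chromosome 18 (minus strand). Nr3c1 had 320, 269 and 269 CPM in control libraries 1 to 3 and 307, 319 and 339 CPM in cKO libraries 1 to 3. Control 1 lay within the range of the cKO libraries, so the groups overlapped. The log2 fold change was 0.17 (95% interval -0.08 to 0.42, edgeR adjusted p = 0.372), with p = 0.3 in the exact permutation test. Of all tested genes, 69% had a larger absolute log2 fold change.

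The transcript of GILZ was lower on average, with overlap between the groups. Tsc22d3 had 422, 500 and 593 CPM in control libraries 1 to 3 and 456, 311 and 349 CPM in cKO libraries 1 to 3. The library labelled cKO 1 lay above control 1, and the other cKO libraries lay below all controls. The log2 fold change was -0.44 (95% interval -0.81 to -0.07), with an unadjusted p of 0.0245 and an adjusted p of 0.118 in edgeR. It passed without control 1 (log2 fold change -0.56, edgeR adjusted p = 0.0356) and under no other alternative. Fkbp5, the feedback co-chaperone, had 84.4, 103 and 99.1 CPM in control libraries 1 to 3 and 112, 91.9 and 108 CPM in cKO libraries 1 to 3. These ranges overlapped, with a log2 fold change of 0.12 (95% interval -0.18 to 0.41, edgeR adjusted p = 0.62).

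Per1 and Klf9 varied most among the controls. Per1 had 288, 90.6 and 212 CPM in control libraries 1 to 3 and 354, 242 and 275 CPM in cKO libraries 1 to 3. Its log2 fold change was 0.56 (95% interval -0.16 to 1.28, edgeR adjusted p = 0.296). Klf9 had 5.39, 1.29 and 4.54 CPM in control libraries 1 to 3 and 5.11, 3.7 and 4.71 CPM in cKO libraries 1 to 3, with a log2 fold change of 0.27 (95% interval -0.83 to 1.37, edgeR adjusted p = 0.775). Control 2 was the lowest library for both genes. The highest control was 3.17 times the lowest for Per1 and 4.2 times for Klf9, a spread larger than that of 93.5% and 95.4% of all tested genes on the log2 scale. Among the cKO libraries it was 1.46 and 1.38 times. Without control 2 the log2 fold change of Per1 was 0.21 (adjusted p = 0.574 in edgeR), and that of Klf9 turned to -0.14 (adjusted p = 0.881 in edgeR).

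Control 2 was also low for many genes of the circadian clock, the feedback loop in which Clock and Arntl activate the Per and Cry repressors and the Nr1d nuclear receptors. Among 17 tested clock genes of 19 listed, control 2 was the lowest of the 6 libraries for 10 and the highest for 2. It was the lowest for 15.6% of all tested genes. Cry2, for example, had 66.0, 23.6 and 29.0 CPM in control libraries 1 to 3, and 61.9, 47.5 and 72.3 CPM in the cKO libraries. Between the groups, 2 clock genes rose and 0 fell, beside 4.47% higher among all tested genes. Rora, a nuclear receptor that activates Arntl, went from 5.95 ± 0.819 to 18 ± 6 CPM (S.D., n = 3 per group, log2 fold change 1.6, edgeR adjusted p = 0.00915). Nr1d2 went from 81.8 ± 32.3 to 156 ± 9.95 CPM (S.D., n = 3 per group, log2 fold change 0.94, edgeR adjusted p = 0.0293). Without cKO 3 neither was called, and Nr1d2 was called in 1 of 6 fits with a library left out. Per2 and Per3, the relatives of Per1, stayed below 3 CPM in every library, and neither passed (adjusted p = 0.621 and 0.879 in edgeR). The labels give no time of day for the samples, and a part of it in these differences was not tested.

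**Figure D2:**
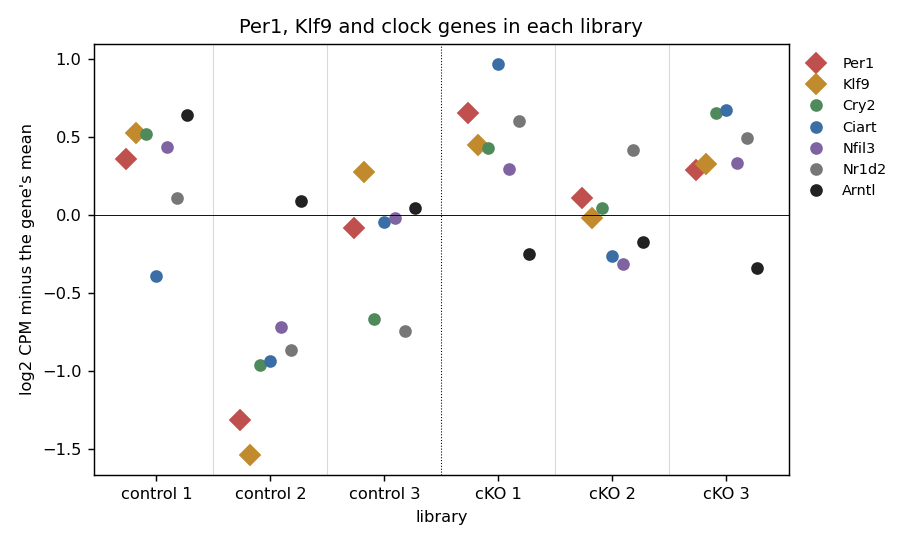
The plot shows log2 CPM minus the mean of the gene over the 6 libraries (vertical axis) for Per1 and Klf9 (diamonds) and 5 clock genes (circles) in each library (horizontal axis). Cry2, Ciart, Nfil3 and Arntl were chosen after their values were seen. In control 2, Per1, Klf9, Cry2, Ciart, Nfil3 and Nr1d2 lie below 0 and below every other library, while Arntl does not. Over all 17 tested clock genes, control 2 was the lowest library for 10 and the highest for 2.

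Of 17 listed chaperones and co-chaperones of the receptor, all tested, 7 rose and 0 fell in the libraries labelled cKO, beside 4.47% higher and 5.89% lower among all tested genes. The other 10 did not pass, and 4 of the 17 had a log2 fold change below 0. The median log2 fold change of the list was 0.36, beside -0.002 over all tested genes. The summed level, to which Hspa8, Hsp90ab1 and Hsp90aa1 gave the largest parts, was 6110 to 7180 CPM in the control libraries and 9200 to 10400 CPM in the cKO libraries, without overlap. Hspa8, the constitutive Hsp70 that loads new receptor, had 1870, 2040 and 2060 CPM in control libraries 1 to 3 and 3170, 3420 and 3850 CPM in cKO libraries 1 to 3. Its log2 fold change was 0.81 with a standard error of 0.11 (adjusted p = 0.00408 in edgeR), and it passed with each library left out. Ptges3, which encodes the co-chaperone p23 that stabilises the hormone-binding form, went from 136 ± 18.5 to 236 ± 26 CPM (S.D., n = 3 per group, log2 fold change 0.8, edgeR adjusted p = 0.00872). Hsp90ab1, the constitutive Hsp90, went from 1080 ± 135 to 1680 ± 124 CPM (S.D., n = 3 per group, log2 fold change 0.64, edgeR adjusted p = 0.0113). Dnaja1, an Hsp40 partner, had a log2 fold change of 0.65 (adjusted p = 0.0116 in edgeR). Fkbp4, the relative of Fkbp5 that links the receptor to dynein, had 245 to 307 CPM in the control libraries and 316 to 373 CPM in the cKO libraries, with a log2 fold change of 0.29 that did not pass (adjusted p = 0.156 in edgeR). Without cKO 1 or without control 2, 4 of the list were called, while 179 and 178 of all tested genes were higher. Without cKO 3, only Hspa8 was called, while the number of all genes higher at this limit went from 514 to 42.

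Of 17 listed coregulators, all tested, 3 fell and 0 rose, beside 5.89% lower and 4.47% higher among all tested genes. The median log2 fold change was 0.01, with 9 members above 0 and 8 below. Ncor1, a corepressor that recruits histone deacetylase, had 307, 361 and 365 CPM in control libraries 1 to 3 and 261, 224 and 203 CPM in cKO libraries 1 to 3 (log2 fold change -0.58, edgeR adjusted p = 0.0207). Smarca4, the ATPase of the BAF chromatin remodelling complex, went from 539 ± 6.94 to 401 ± 4 CPM (S.D., n = 3 per group, log2 fold change -0.43, edgeR adjusted p = 0.0238). Ncoa1, a p160 coactivator, went from 32.0 ± 5.86 to 19.2 ± 1.43 CPM (S.D., n = 3 per group, log2 fold change -0.74, edgeR adjusted p = 0.0332). The groups did not overlap for these genes, yet none of them was called without cKO 2, without cKO 3 or without control 3. With the single libraries left out in turn, between 0 and 4 coregulators fell, beside 78 to 1030 of all tested genes.

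Of the genes that make, reduce or export steroids, 10 of 16 were tested, and 1 fell, a share near the 5.89% lower among all tested genes. H6pd, the enzyme of the endoplasmic reticulum that supplies the NADPH used by Hsd11b1, had 49.5, 42.0 and 46.9 CPM in control libraries 1 to 3 and 32.8, 31.5 and 32.5 CPM in cKO libraries 1 to 3. All cKO libraries lay below all controls. The log2 fold change was -0.52 with a standard error of 0.14 (adjusted p = 0.0447 in edgeR), and H6pd passed in 1 of 6 fits with a library left out and in 4 of 8 other alternatives. Hsd11b2, which inactivates glucocorticoid, had 1 count in control 3, 5 counts in cKO 3 and 0 in the other libraries. Cyp17a1, Hsd3b1, Cyp21a1 and Cyp11b1, enzymes of adrenal steroid synthesis, had 0 counts in all 6 libraries. Cyp11a1, which starts steroid synthesis from cholesterol, was listed at 2.02 ± 1.28 CPM in the control and 1.03 ± 0.413 CPM in the cKO libraries (mean ± S.D., n = 3 each, log2 fold change -0.98, edgeR adjusted p = 0.417).

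**Figure D3:**
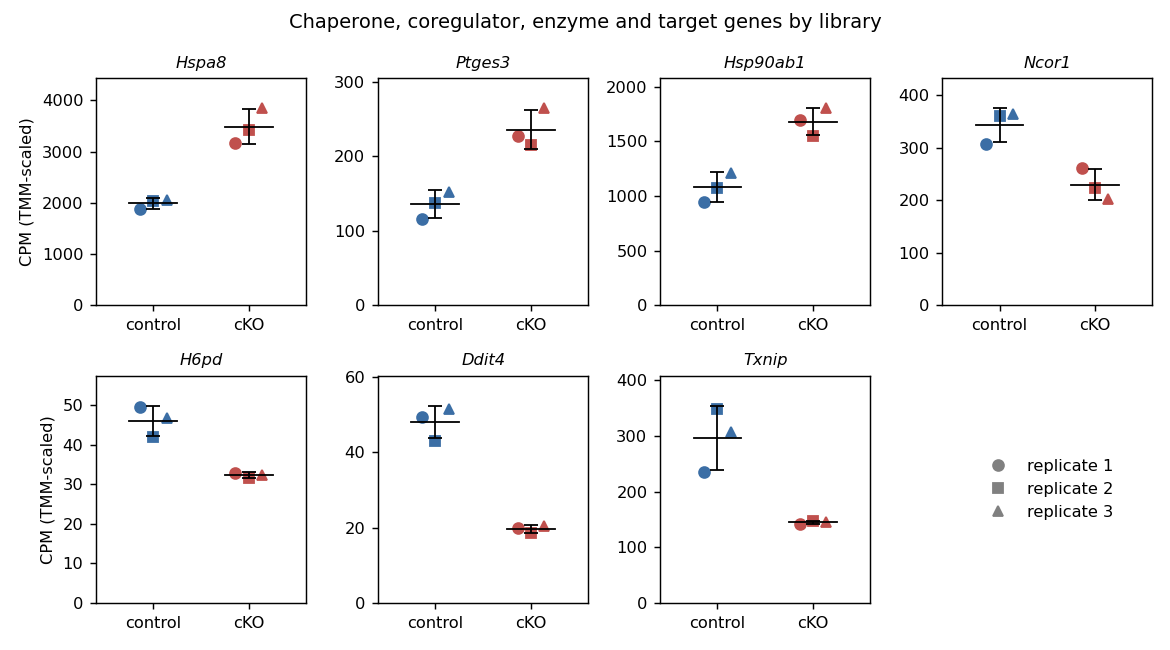
Each panel plots the TMM-scaled CPM of 1 gene (vertical axis, from 0) in the control (blue) and cKO (red) libraries, with the mean and S.D. in black and a marker shape per replicate number. Hspa8, Ptges3 and Hsp90ab1 lie higher, and Ncor1, H6pd, Ddit4 and Txnip lower, in all 3 cKO libraries than in any control.

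Of 25 listed other genes known to be induced by glucocorticoids, 19 were tested, 2 rose and 2 fell, beside 4.47% higher and 5.89% lower among all tested genes. The median log2 fold change was 0.34. With single libraries left out, the number that fell was 2 in every fit. The number that rose was 0 without cKO 3, 1 without cKO 1, control 2 or control 3, 3 without cKO 2 and 4 without control 1. Over all tested genes in these fits, 42 (without cKO 3) to 1000 (without control 1) rose and 78 to 1030 fell. Ddit4, an inhibitor of mTORC1 that dexamethasone induces in thymocytes, had 49.4, 43.1 and 51.4 CPM in control libraries 1 to 3 and 19.9, 18.5 and 20.5 CPM in cKO libraries 1 to 3. This was 40.9% of control (log2 fold change -1.29, standard error 0.15, edgeR adjusted p = 0.00349), and Ddit4 ranked 14 among all tested genes by p-value. Txnip, which binds thioredoxin and limits glucose uptake, had 235, 349 and 307 CPM in control libraries 1 to 3 and 142, 148 and 145 CPM in cKO libraries 1 to 3 (log2 fold change -1.04, standard error 0.15, edgeR adjusted p = 0.00495). Ddit4 and Txnip, like Sgk1, passed in all 14 alternatives. Bcl2l11, which encodes the BH3-only protein Bim, went from 99.1 ± 41.3 to 246 ± 76.6 CPM (S.D., n = 3 per group, log2 fold change 1.31, edgeR adjusted p = 0.0228), and it lost the call in 4 of 6 fits with a library left out. Tgm2, a transglutaminase also made by macrophages, had 0, 3 and 0 counts in control libraries 1 to 3 and 41, 47 and 57 counts in cKO libraries 1 to 3 (adjusted p = 0.0141 in edgeR), and it lost the call without cKO 3. Tgm2 passed the filter on low counts through the cKO libraries alone. Nfkbia, the inhibitor of NF-kB, lay just outside the limit, with a log2 fold change of 1.24 (adjusted p = 0.0521 in edgeR). Dusp1, a phosphatase of MAP kinases, had 699 to 1460 CPM in the cKO libraries and 718 to 790 CPM in the controls (log2 fold change 0.45, edgeR adjusted p = 0.206).

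**Figure D4:**
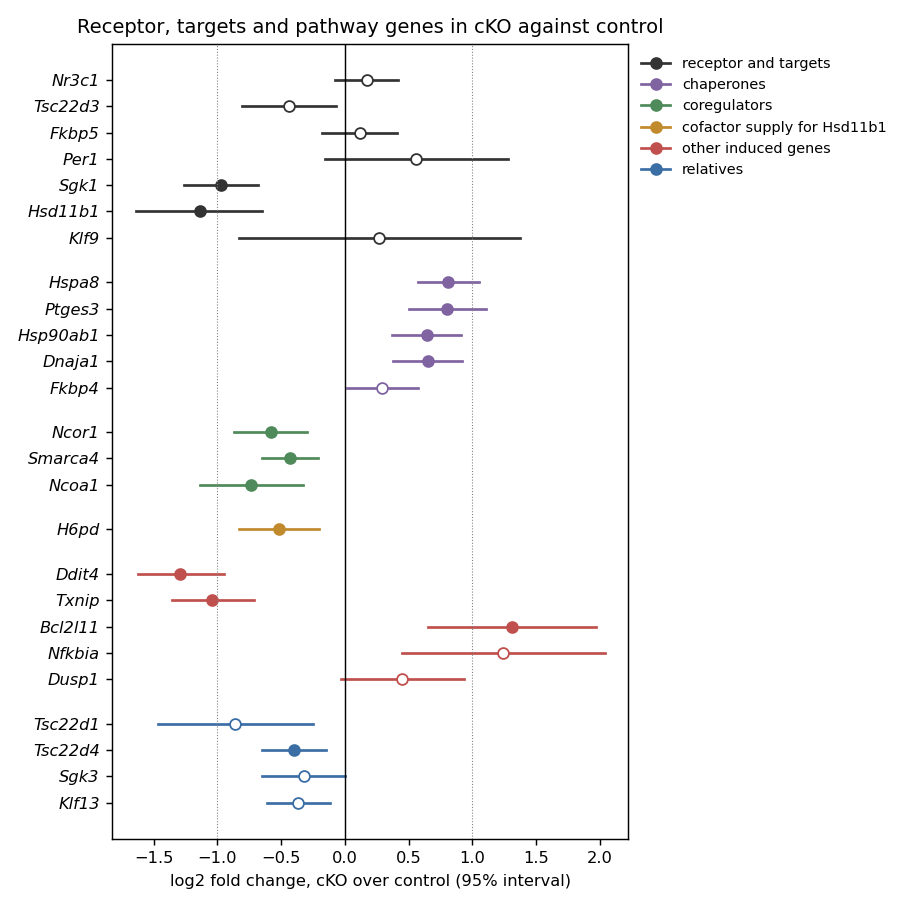
Points give the log2 fold change of cKO over control (horizontal axis) with its 95% interval for the 7 genes and for selected genes of the pathway, coloured by role. The coregulators shown are the 3 called of 17 listed, of which 9 had a log2 fold change above 0. The chaperones shown are the 4 called with the smallest p and Fkbp4. The 4 of 17 listed chaperones with a log2 fold change below 0 are not shown. Filled points have an edgeR adjusted p below 0.05, and dotted lines mark a log2 fold change of -1 and 1. Sgk1, Hsd11b1, Ddit4 and Txnip lie on the left, the chaperones Hspa8, Ptges3, Hsp90ab1 and Dnaja1 on the right, and Nr3c1 close to 0.

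Of 20 listed relatives of the 7 genes, 16 were tested, 2 fell and 0 rose, beside 5.89% lower and 4.47% higher among all tested genes. With single libraries left out, 5 fell without control 1, 2 without cKO 1, and 0 without control 2, control 3, cKO 2 or cKO 3. In the same fits 1 rose without control 1 and 2 rose without cKO 2. Over all tested genes, these fits gave 78 (without cKO 3) to 1030 (without control 1) lower and 42 to 1000 higher. Tsc22d4, of the same family as GILZ, had 525, 547 and 561 CPM in control libraries 1 to 3 and 374, 460 and 402 CPM in cKO libraries 1 to 3 (log2 fold change -0.4, edgeR adjusted p = 0.0492). It lay just inside the limit and lost the call in 5 of 6 fits with a library left out. Tsc22d1 had a log2 fold change of -0.86 (adjusted p = 0.0726 in edgeR), with 52.9 to 98.9 CPM in the control and 29.0 to 58.3 CPM in the cKO libraries. Klf6, an abundant Krüppel-like factor, had -0.56 (adjusted p = 0.0432 in edgeR) and lost the call in 4 of 6 fits with a library left out. Klf13, a regulator of T cell cytokine genes, had -0.37 (adjusted p = 0.0585 in edgeR). Sgk3 had 58.6 to 68.9 CPM in the control and 43.7 to 58.5 CPM in the cKO libraries, with a log2 fold change of -0.32 (95% interval -0.65 to 0, edgeR adjusted p = 0.186). Nr3c2, the mineralocorticoid receptor, which also binds glucocorticoid, ranged from 0.194 to 1.45 CPM, with a log2 fold change of -1.11 (adjusted p = 0.464 in edgeR).

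The genes most like Nr3c1 and Tsc22d3 were found by the root mean square difference of centred log2 CPM over the 6 libraries, among 8871 genes outside the lists with a mean of at least 5 CPM. For Nr3c1 these were Ppp6c (0.019), Zfp62 (0.028) and Akap8 (0.029), where the median over all candidates was 0.268. For Tsc22d3 they were Ttc19 (0.07), Scnm1 (0.07) and Coq9 (0.075), beside a median of 0.377. Ppp6c had 164, 137 and 141 CPM in control libraries 1 to 3 and 160, 168 and 172 CPM in the cKO libraries, and so followed the high value of Nr3c1 in control 1. Scnm1 had 34.4, 43.4 and 44.7 CPM in control libraries 1 to 3 and 39.5, 26.2 and 28.2 CPM in the cKO libraries, with cKO 1 within the control range as for Tsc22d3. Such likeness was fixed by the choice, since these genes were picked by the same values.

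Markers of DP thymocytes and of macrophages, and immediate early genes, differed between the groups. The counts that follow stand beside 4.47% higher and 5.89% lower among all tested genes. Of 15 markers of DP thymocytes, all tested, 5 fell and 0 rose, and all 15 had a log2 fold change below 0 (median -0.37). Their summed level was 19900 to 22200 CPM in the control and 14900 to 17200 CPM in the cKO libraries, so RNA of these markers was abundant in every library. Cd1d1, which presents lipids, had a log2 fold change of -0.97 (adjusted p = 0.00408 in edgeR) and Rag1, the recombinase, -0.85 (adjusted p = 0.00923 in edgeR). Cd3e and Lck, of T cell receptor signalling, were also called, and Cd4 lay just outside the limit (adjusted p = 0.0515 in edgeR). In bulk samples, fewer cells of a type and less RNA per cell cannot be told apart. Of 20 macrophage markers, 15 were tested, and 7 rose and 0 fell. Their summed level was 29.4 to 55.5 CPM in the control and 78.2 to 104 CPM in the cKO libraries. Adgre1, the antigen F4/80, had 0 counts in every control and 50, 42 and 52 counts in cKO libraries 1 to 3, while Mertk had 0 counts in all libraries. The complement genes C1qc and C1qb and the adhesion gene Vcam1 were also called. Adgre1 passed the filter on low counts through the cKO libraries alone. With the filter at a mean of at least 5 CPM, only 1 macrophage marker rose. Of the immediate early genes, which respond quickly to stimulation and to tissue handling, 17 of 18 were tested, 8 rose and 1 fell. Their summed level was 3280 to 3920 CPM in the control and 4020 to 8080 CPM in the cKO libraries, with cKO 1 the highest library for 10 of 17. Nr4a1, a nuclear receptor induced by TCR signals, had a log2 fold change of 1.62 (adjusted p = 0.0093 in edgeR), and Junb, an AP-1 subunit, 1.19 (adjusted p = 0.00872 in edgeR). Fosl2 and Nr4a3, of the same families, had 1.9 and 2.34. With single libraries left out in turn, 1 to 10 DP thymocyte markers fell, 1 to 10 macrophage markers rose and 1 to 9 immediate early genes rose. The lowest counts came without cKO 3 and the highest without control 1. Over all tested genes the calls moved the same way, from 78 to 1030 lower and from 42 to 1000 higher. Of 10 dendritic cell markers 5 were tested and 1 rose (Bst2), of 8 B cell markers 2 were tested and 1 fell (Cd79b), and of 14 thymic stroma markers 6 were tested and 0 were called. The part of these marker differences in the values of Sgk1, Hsd11b1, Per1 and the other genes was not tested.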

How the data were processed

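RNA-Seq libraries from sorted DP thymocytes (3 control, 3 cKO) were read from 1 deposited table. Its count columns hold the reads per gene that the authors counted without normalization. RSEM is among the tools in the submitters' processing notes (with fastp, Bowtie2, HISAT2 and StringTie), so rounded estimates are possible. The deposited FPKM columns hold the authors' values scaled to gene length and library size, and were used only to order levels between genes and in 1 alternative. Columns of group means, log2 ratios, p-values and FDR hold the authors' own comparison and were not used. The sources used here name neither genome build nor strand setting. The labels name a SMARTER kit and the methods a Discover-sc WTA kit with cDNA amplification.

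The tests ran in edgeR 4.0.16 (R 4.3.3). Genes were kept by filterByExpr (minimum count 10, minimum total 15), and 11488 of the 15349 detected genes passed. The quasi-likelihood test of edgeR compared the genotypes, with TMM factors, no covariate, and p-values adjusted over all tested genes by Benjamini-Hochberg. A change was called at an adjusted p below 0.05, and the fold limit of the methods (absolute log2 fold change above 1) was read beside it. Intervals and standard errors come from the same fit. With simulated counts for 6 libraries, the scripts were checked to recover known changes. Within a group, counts of library pairs gave a chi-square of 19.7 to 68 per degree of freedom, so none was a duplicate. The 7 genes and all lists were chosen with earlier results of these data known. Named were Paxbp1, the 7 genes, up to 4 called genes per list with the smallest p, fixed relatives and partners, the most similar genes, and genes nearest the limit. Cry2, Ciart, Nfil3, Arntl, Dusp1, Mertk, Cyp11a1 and the steroid enzymes at 0 counts were named after their values were seen. Alternatives were DESeq2 1.42.0, RLE factors, total counts alone, no filter, a mean of at least 5 CPM, limma-voom (limma 3.58.1), the replicate number as a block, each library left out in turn and, added after the data were seen, limma on log2(FPKM + 1). Promoter windows are from RefSeq.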

Additional observations from a re-analysis of the deposited data

How the results depend on the processing

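Sgk1 kept its direction and its call in all 14 alternatives, and Nr3c1, Fkbp5 and Per1 kept their direction and stayed uncalled in all 14. With single libraries left out, the log2 fold change ranged from -1.3 to -0.93 for Hsd11b1, from -0.61 to -0.31 for Tsc22d3 and from -0.14 to 0.62 for Klf9. In these fits 1 to 3 of the 7 genes were called. Over all tested genes, 42 to 1000 were higher and 78 to 1030 lower at an adjusted p below 0.05. Klf9 could not be fitted under the filter at 5 CPM. Hsd11b1 lost the call without control 2 or cKO 3, Tsc22d3 gained it without control 1, and Klf9 turned to -0.14 without control 2. Past the fold and FDR limits of the methods, 176 genes were higher and 141 lower with all libraries, and 28 to 270 higher and 45 to 184 lower with 1 left out. The ends were reached without cKO 3 (28 and 45) and without control 1 (270 and 184), and without cKO 1 96 genes were higher and without control 2 92 lower. The cause was not tested. With limma on the deposited FPKM 93 genes were lower. With DESeq2, 953 genes rose and 987 fell at an adjusted p below 0.05, against 514 and 677 with edgeR. The median log2 fold change of all tested genes was at most 0.03 under every scaling tried.

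Taken over all tested genes, the same replicate number showed no clear pairing of libraries across genotypes. A pairing limited to some genes was not tested. Among the 7 genes, only Per1 and Klf9 had replicate 1 highest and replicate 2 lowest in both groups. Deviations from the group means correlated at 0.045, 0.038 and -0.03 for the 3 same-numbered pairs, and not every library correlated best with its own number. With the replicate number as a block, the log2 fold change was -0.96 for Sgk1 (edgeR adjusted p = 0.00521), -1.17 for Hsd11b1 (0.0106), -0.45 for Tsc22d3 (0.12) and 0.69 for Per1 (0.0657), so no call of the 7 genes changed, and the block gave 570 genes higher and 668 lower at an adjusted p below 0.05.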
